A study of Homo sapiens with 74 samples.

Results

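Promoter regions that many zinc-finger proteins (ZFPs) had in common were taken from 72 Cut&Run peak lists of 36 ZFPs. Overlapping peaks of all lists were merged into 36731 regions, and a ZFP was counted once for a region when either of its replicate lists had a peak there. Of these regions, 13448 lay within 1 kb of a protein-coding transcription start site (TSS) on chromosomes 1 to 22 and X. The 300 of them that were called for 10 or more ZFPs (2.23% of the 13448) are the members described here, and 368 protein-coding genes have a TSS within 1 kb of them. The region of EEF1A1, the gene of EF1-alpha, was left out. Members were selected on the number of ZFPs with a peak, so that number, and the folds behind the peaks, are given as a description with no test.

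Cut&Run directs a nuclease with an antibody to the chromatin where a tagged protein sits, and releases the DNA around it. HEK293T, a human embryonic kidney cell line, was transfected with a plasmid that carried the open reading frame of a ZFP with a C-terminal V5 tag under the EF1-alpha promoter, and 48 h later a V5 antibody was applied to uncrosslinked chromatin. Un-transfected HEK293T cells taken through the same V5 immunoprecipitation were the mock IP control, so transfection and the tagged protein cannot be told apart in any list. Each ZFP formed 1 group with 2 biological replicates from separate wells, and the groups were APEX2, BRCA1, CISD1, CNBP, CNOT4, CPSF4, CPSF4L, CTCF, G2E3, GIN1, GTF3C4, LIN28B, MAZ, MBNL1, NANOS2, PHF7, RBM5, RNF113A, RNF14, SALL4, SNRPC, TEX13A, TRIM55, U2AF1, WBP4, ZC3H3, ZFP36L1, ZMAT3, ZMAT5, ZNF2, ZNF22, ZNF317, ZNF574, ZNF593, ZNF706 and ZNF800. All 36 tagged proteins were expressed from plasmids, beside any untagged protein from the cells' own genes. The study's methods give 1 approximate sequencing depth for all libraries, and no read total for a single library was used here. The lists held 92122 peaks in all, from 15 to 8702 per list with a median of 631. List length is given beside the calls, and it is no measure of depth.

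As a check of the labels, each list was searched for a peak on a coding exon of its own gene, where the open reading frame of the plasmid aligns. Of the 72 lists 66 had one. Neither list of U2AF1, a gene with a near-identical copy in hg38, nor of ZMAT5 had one, and replicate 1 of MBNL1 and replicate 2 of TRIM55 lacked one. These 6 lists are kept under their labels, and without them 285 regions were called for 10 or more ZFPs, against 300. For CPSF4, MBNL1, SNRPC, TRIM55, ZC3H3 and ZMAT5 the study's summary of target genes has no Cut&Run entry. Without these 6 ZFPs 136 regions were called for 10 or more, so more than 50% of the members depend on their calls.

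A promoter is the stretch of DNA around a TSS where RNA polymerase assembles with its general factors. Most promoters of widely expressed human genes lie in CpG islands, which are rich in G and C, keep their CpG dinucleotides and are open in nearly all cells. Genes for 7SK, RNase P RNA, RNase MRP RNA and the RNA of the signal recognition particle are short, are transcribed by RNA polymerase III at a high rate and are open in the same way. Tandem repeats are stretches in which a short word follows itself many times. A Cut&Run peak at any of them says that fragments were released there more often than in the control, through direct or indirect contact.

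The members fell into 3 kinds, and these were set after the regions had been seen. Among the 300, 6 held a small RNA gene, 6 had at least 50% of their bases in 12-base words that occurred 3 times or more within the region, and 288 were of neither kind. Sequences that show the 3 kinds are given in hg38, 5′ to 3′, with the strand of each. The first set shows where the RNA genes start, with 60 bases before the gene in lower case and the first 60 bases of the RNA in capitals. RN7SK (chr6:52995560-52995679, plus strand) encodes 7SK, which holds the elongation factor P-TEFb inactive. RPPH1 (chr14:20343352-20343471, minus strand) encodes the RNA of RNase P, which trims tRNA precursors. RMRP (chr9:35657960-35658079, minus strand) encodes the RNA of RNase MRP, which takes part in rRNA processing.
RN7SK: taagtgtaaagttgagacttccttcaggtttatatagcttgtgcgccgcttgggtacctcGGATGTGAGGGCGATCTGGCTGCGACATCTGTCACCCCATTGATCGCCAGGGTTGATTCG
RPPH1: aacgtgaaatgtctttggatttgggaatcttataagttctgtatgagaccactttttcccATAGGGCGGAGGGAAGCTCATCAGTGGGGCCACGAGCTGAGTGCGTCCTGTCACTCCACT
RMRP: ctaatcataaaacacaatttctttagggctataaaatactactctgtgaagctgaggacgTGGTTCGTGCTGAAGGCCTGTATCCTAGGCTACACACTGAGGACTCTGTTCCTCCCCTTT

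The second set shows members whose sequence was repetitive. The windows are 121 bases around the median summit on the plus strand of ADAP1 (chr7:905970-906090) and LGR6 (chr1:202204990-202205110), with the commonest 7-base word in capitals.
ADAP1: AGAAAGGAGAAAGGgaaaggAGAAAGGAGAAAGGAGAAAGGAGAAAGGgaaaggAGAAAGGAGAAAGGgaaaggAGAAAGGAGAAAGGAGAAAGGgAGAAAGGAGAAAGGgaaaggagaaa
LGR6: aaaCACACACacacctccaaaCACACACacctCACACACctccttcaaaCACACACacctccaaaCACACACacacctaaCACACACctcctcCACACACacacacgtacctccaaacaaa

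The third set gives 2 of the 288 others, chosen after their values were seen, with each CpG in capitals. PBX3 (chr9:125746303-125746423, plus strand) and EGR1 (chr5:138465143-138465263, plus strand) are shown around the median summit. The windows hold 9 CpGs for PBX3 and 13 for EGR1, against 0 for ADAP1 and 1 for LGR6.
PBX3: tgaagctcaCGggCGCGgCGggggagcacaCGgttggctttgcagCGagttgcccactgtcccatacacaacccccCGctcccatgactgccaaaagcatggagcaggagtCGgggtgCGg
EGR1: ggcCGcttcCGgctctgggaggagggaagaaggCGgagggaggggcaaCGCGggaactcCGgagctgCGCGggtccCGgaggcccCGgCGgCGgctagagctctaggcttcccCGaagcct

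**Figure D1:**
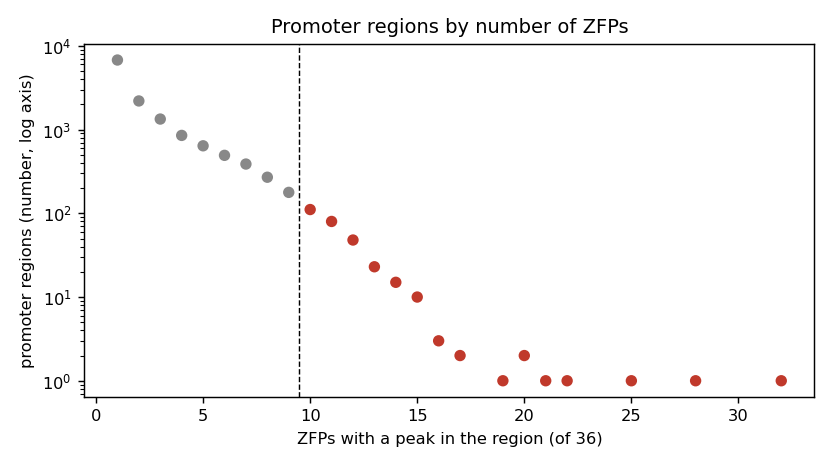
Number of promoter regions (vertical axis, log scale) that were called for each number of ZFPs (horizontal axis, of 36). Points in red, right of the dashed line, are the members; 111 regions were called for exactly 10 ZFPs and 1 region for 32.

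Most promoter regions belonged to few ZFPs. Of the 13448, 6786 were called for 1 ZFP, 4392 for 2 to 4 and 1970 for 5 to 9. Among the members, 111 were called for exactly 10 ZFPs, 128 for 11 to 12, 48 for 13 to 15 and 13 for 16 or more. The plot of regions by number of ZFPs falls without a step at the limit of 10. The members just inside it with the most lists were those of FAM86B1 (18 lists, median fold 5.04), RRM2B (17 lists, 7.38), a subunit of ribonucleotide reductase, and KHSRP (17 lists, 6.26), an RNA-binding protein. The regions just outside it, at 9 ZFPs, were those of SLC26A6 (15 lists, median fold 6.06), NARF (15 lists, 5.40) and ARHGAP35 (14 lists, 6.49). The number of members rested on the longest lists. Without the 3 ZFPs with the most peaks, CISD1, APEX2 and ZNF22, 59 regions were called for 10 or more ZFPs, and 7 were when both replicates of a ZFP were needed. With the replicate 1 lists alone the number was 149, and with the replicate 2 lists alone 20.

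The region called for the most ZFPs was the repeat near ADAP1, a GTPase-activating protein of Arf. It had peaks for 32 ZFPs (chr7:905448-906577), in both replicates for 23 of them. Over its 55 lists the fold, which sets the summit signal of a library against that of the mock IP, was 2.43 at the lowest (ZNF574), 5.04 at the median and 10.9 at the highest (GIN1). CNOT4, MBNL1, ZMAT5 and ZNF317 had no peak there. The region consists of purines on the plus strand, repeats its 12-base words most often at a spacing of 7 bp (37.0% of spacings), holds no CpG, and its median summit lay 953 bp upstream of the TSS. Its folds were low beside its number of ZFPs, as the median over all members was 5.77.

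The small RNA genes followed. The region with RN7SL1, the RNA of the signal recognition particle, within 1 kb of the ribosomal protein gene RPS29, had peaks for 28 ZFPs (chr14:49586196-49586899). Its fold ran from 3.0 over a median of 10.9 to 58.1 in 41 lists, highest in CISD1 replicate 1 (58.1) and MAZ replicate 1 (57.7). The region with RN7SK, within 1 kb of GSTA4, a glutathione transferase, had peaks for 25 ZFPs (chr6:52995619-52995979). Its fold ran from 5.42 over a median of 13.6 to 59.6 in 43 lists, the highest median of all members, and the CISD1 replicates had 49.6 and 59.6. Both replicates had a peak at RN7SK for 18 of the 25 ZFPs and at RN7SL1 for 13 of the 28.

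The regions of RPPH1 (22 ZFPs, beside PARP2, a poly(ADP-ribose) polymerase of DNA repair) and RMRP (20 ZFPs, beside CCDC107) had median folds of 9.01 and 8.83 in 29 lists each. RPPH1 ranged from 4.10 to 35.5 and RMRP from 4.11 to 29.5. RNU2-2, a gene of U2 snRNA that lies at the start of WDR74, was called for 14 ZFPs with a median fold of 9.34 (2.99 to 23.3, 19 lists). In the first 4 of these regions the median summit lay on the RNA gene, 278 bp (RN7SL1) to 501 bp (RN7SK) upstream of the coding TSS. For RNU2-2 the TSS of WDR74 is the first base of the RNA gene, so the 2 cannot be told apart. Summits of 43 of 43 lists lay within RN7SK, 40 of 41 within RN7SL1, 28 of 29 within RPPH1, 25 of 29 within RMRP and 19 of 19 within RNU2-2. The median summit lay at base 166 of the 332 bases of RN7SK and at base 166 of the 341 bases of RPPH1. The sixth region, which holds an arginine tRNA gene of the TRR-CCT4-1 copy and lies beside FMC1, differed, as 0 of its 17 summits lay within the tRNA gene and its median fold was 5.31. Regions that hold a small RNA gene made up 2.00% of the members and 0.171% of all promoter regions.

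The other regions among the 12 called for the most ZFPs were coding promoters and the LGR6 repeat. POLR1B, a large subunit of RNA polymerase I, was called for 21 ZFPs (chr2:112541891-112543067), with a fold of 4.11 to 15.1 and a median of 8.48 in 34 lists. NFE2L2, the transcription factor NRF2 of the oxidative stress response, was called for 20 ZFPs (chr2:177263469-177265443), with both replicates for 15 of them. Its fold was 2.00 at the lowest (ZMAT5), 8.82 at the median and 17.2 at the highest (CISD1) in 35 lists. Both promoters had median folds close to those of RPPH1 and RMRP, without a small RNA gene in the region.

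LGR6, a receptor of R-spondins, was called for 19 ZFPs at a median fold of 5.18 (3.02 to 6.71, 24 lists), and its region holds CA-rich words. C14orf93 was called for 17 ZFPs with a median fold of 6.66 (4.17 to 13.5, 29 lists). PBX3, a homeodomain factor, was also called for 17, with a median of 5.78 (4.09 to 12.2, 26 lists). Its median summit lay 982 bp upstream of the nearest coding TSS. TMEM87B was called for 16 with a median of 6.41 (4.06 to 11.5, 24 lists), and so was the region shared by SRSF2, a splicing factor, and MFSD11, with a median of 6.06 (2.00 to 11.4, 23 lists). By median fold the 5 highest members were those of RN7SK, RN7SL1, RNU2-2, RPPH1 and TOMM20, an import receptor of mitochondria. TOMM20 was called for 10 ZFPs and had a median fold of 8.91 in 15 lists, from 2.87 in RNF14 to 20.4 in MAZ replicate 2.

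**Figure D2:**
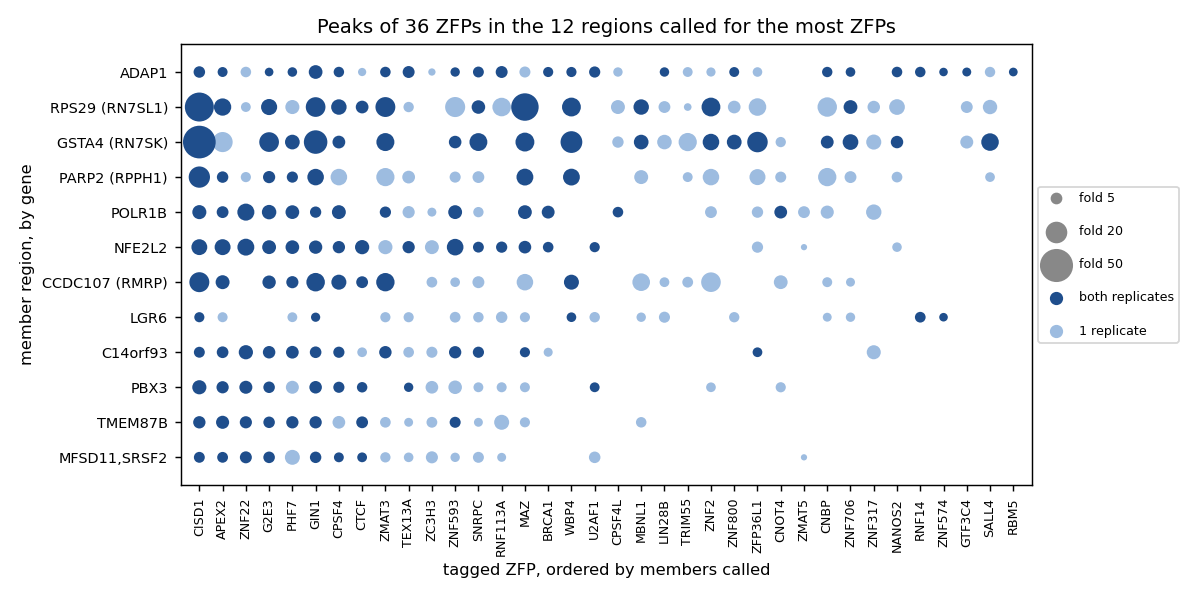
Peaks of the 36 ZFPs (columns, ordered by the number of members called) in the 12 regions called for the most ZFPs (rows, by gene, with the small RNA gene in brackets). Dot area is proportional to the mean fold over the lists with a peak, dark dots had a peak in both replicates and light dots in 1; ADAP1 has small dots in 32 columns and RN7SK large ones in 25.

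The longest lists called nearly every member. CISD1, an iron-sulfur protein of the outer mitochondrial membrane, had a peak in 297 of the 300 (99%), against 37.3% of all 13448 promoter regions. APEX2, an endonuclease of base excision repair, had a peak in 294 (36.3% of all promoter regions), and the C2H2 protein ZNF22 in 292 (33.9%). The ubiquitin ligases G2E3 and PHF7 had peaks in 283 (28.5%) and 281 (31.0%), and GIN1 in 276 (17.3%). These are the 6 ZFPs with the most peaks in all, 5123 to 11335 over both lists, and 235 members were called for all 6 of them, 55 for 5, 8 for 4 and 2 for 3. A median of 5 further ZFPs was called per member.

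The few members that the longest lists lacked can be named. CISD1 lacked the regions of RNH1, SELENOI and EGR1. APEX2 lacked those of WDR74 with RNU2-2, GPR35, NRXN3, ENO1, FARS2 and GAGE2E. ZNF22 lacked 8, among them RN7SK, RMRP and the repeats near LGR6 and MUC2. G2E3 lacked 17, all of them other than small RNA regions, and 3 were repeats. PHF7 lacked 19, among them the region of RNU2-2 and the repeats near MUC2 and PLCXD1. GIN1 lacked 24, and none of these was a small RNA or repeat region.

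Below these, CPSF4, a subunit of the cleavage and polyadenylation complex, had a peak in 235 members (9.73% of all promoter regions). CTCF, the insulator protein, had a peak in 228 (17.0%). ZC3H3 had a peak in 140 (5.03%), all from its replicate 1 list, as its replicate 2 list of 15 peaks held 0. At the other end, RNF14 had peaks in 9 members (0.171% of all promoter regions), ZNF574 in 7 (0.141%), GTF3C4 in 7 (0.0892%), SALL4 in 5 (0.0744%) and RBM5 in 2 (0.0744%). List length and the number of members called ran together over the 36 ZFPs (Spearman's rank correlation 0.72), with libraries and mock IP controls shared between the points. TRIM55 and ZMAT5 stood off that relation, with 3358 and 2286 peaks and 18 and 12 members, while 2.28% and 1.23% of all promoter regions were called for them. Their median fold in members was 2.00 each, and nearly all of their peaks came from the replicate 2 lists, which had no peak on the ZFP's own gene. At a fold of 2.00, the ZMAT5 calls at NFE2L2 and at SRSF2 and MFSD11 had a −log10 q of 1.37. The TRIM55 call at CTCF had 1.85, and the lowest in any member was 1.31. These calls count toward the ZFPs of those regions. In all, 10 ZFPs had a peak in at least 50% of the members and 17 in under 10%. In each of the 36 ZFPs the share of members called was above its share of all promoter regions, which the selection itself favours.

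**Figure D3:**
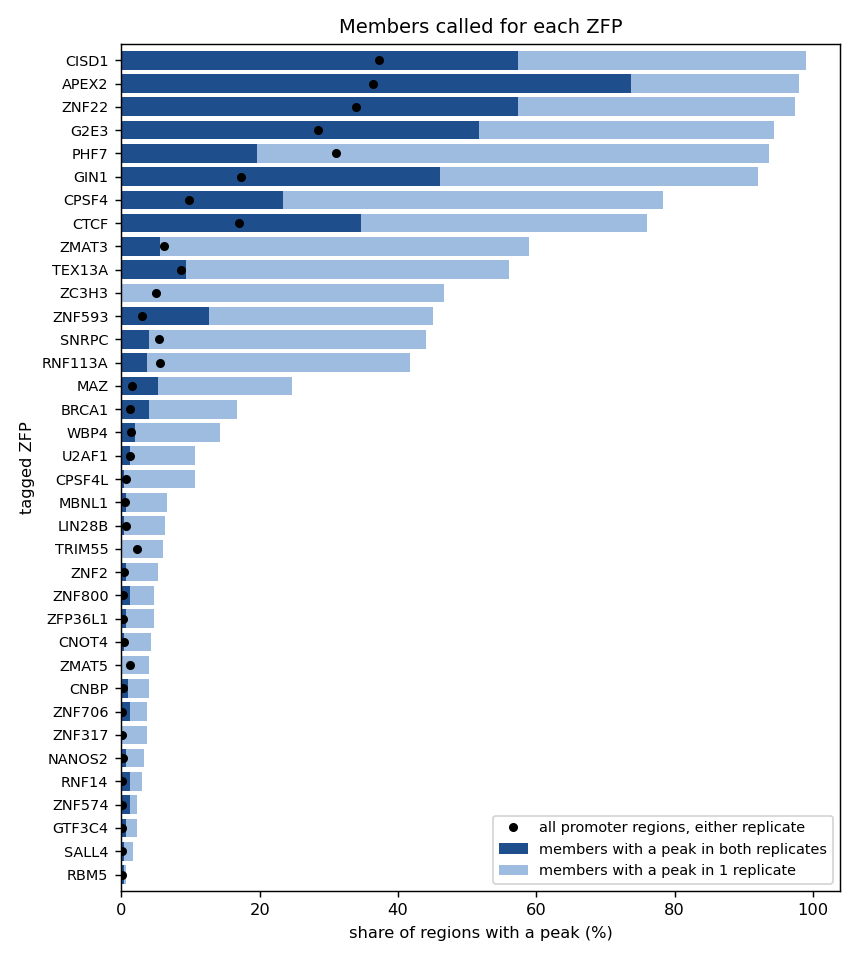
Share of the 300 members with a peak for each ZFP (bars, in percent), dark where both replicates had a peak and light where 1 had, with the share of all 13448 promoter regions called in either replicate as black points. The bars run from 99% for CISD1 to 0.667% for RBM5.

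ZFPs with short lists called small RNA and repeat regions at higher shares than the other members. For the 24 ZFPs with under 2000 peaks in both lists together, 71 of 144 pairs of a ZFP and a small RNA region were called (49.3%), 54 of 144 pairs with a repeat region (37.5%) and 860 of 6912 pairs with another member (12.4%). For the 6 ZFPs with the most peaks the shares were 88.9%, 77.8% and 96.2%. Pairs share libraries and regions, and the member regions were chosen on these calls, so the shares are a description. GTF3C4, a subunit of TFIIIC, which recruits RNA polymerase III, had peaks at RN7SL1, RN7SK and RNU2-2 in 1 replicate each, with folds of 7.24, 8.60 and 8.60. It also had peaks at the repeats near ADAP1 in both replicates (3.08 and 5.07) and near MUC2 in 1 (6.0), and at GAGE2E in 1 (4.72). SALL4 had peaks at RN7SK in both replicates (folds 10.5 and 21.0) and at RN7SL1, RPPH1, ADAP1 and SNX11 in 1. RBM5 had peaks at ADAP1 in both replicates (3.62 and 4.19). RNF14 and ZNF574 had no small RNA region and shared the repeats near ADAP1, LGR6, MUC2 and GPR35.

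The replicate lists differed in what they called. Of 3494 pairs of a member and a ZFP, 1269 were called in both replicates (36.3%, exact 95% binomial interval 34.7 to 37.9%, for counting error only), against 13.2% of the pairs in all promoter regions. The pairs share lists and regions, and members were chosen on calls in either replicate. The interval takes no account of that, and the contrast is a description. The share was 48.3% in small RNA regions, 43.8% in repeats and 35.7% in the others. APEX2 had both replicates in 221 of its 294 members, while PHF7 had them in 59 of 281, with 275 members in its replicate 1 list and 65 in its replicate 2 list. ZMAT3 had 173 and 21. A member had both replicates for a median of 4 ZFPs, 122 members for 5 or more and 7 for 10 or more, and the lowest number was 0.

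To read the calls in lists that the choice did not use, regions were chosen on the replicate 1 lists alone and read in the replicate 2 lists. Here the regions were those merged over all lists, so the peaks of both replicates set their borders. The numbers of 149 and 20 above came from merging each replicate's lists anew. The 152 regions with 10 or more ZFPs in replicate 1 lists had a median of 6 ZFPs (1 to 27) in replicate 2 lists, and 0 of them had none. Regions with 5 to 9 ZFPs in replicate 1 lists had a median of 2 in replicate 2 lists, and 10.4% of 1462 had none. Regions with 5 to 9 in replicate 2 lists had a median of 8 in replicate 1 lists, and 0 of 340 had none. Regions with 1 ZFP in replicate 1 lists had none in replicate 2 lists for 81.1% of 5863. Regions with 1 ZFP in replicate 2 lists had none in replicate 1 lists for 44.4% of 4276. In the other direction, 21 regions with 10 or more in replicate 2 lists had a median of 14 (8 to 28) in replicate 1 lists. No test is given, as lists were called against shared mock IP samples, by batch in the study's methods.

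Folds of members were slightly above those of other promoter regions. The median over regions of the median fold was 5.77 for members, with quartiles of 5.40 and 6.22, against 5.31 at 5 to 9 ZFPs, 5.00 at 2 to 4 and 4.65 at 1. The small RNA regions had a median of 9.17, the repeats 5.20 and the other members 5.77, and no member outside the first kind was above 8.91. In 29 of the 36 ZFPs the median fold in members was above that in the promoter regions that were no members. The highest fold of a list in a region was taken, and members were wider (median 1086 bp against 354 bp in all promoter regions). Members were also selected on calls. Both bear on the contrast, and their part in it was not tested. For CISD1 it was 6.12 against 5.03 and for CTCF 5.92 against 5.50.

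The members were GC-rich, about as much as other called promoters. In windows of 1001 bp centred on the nearest TSS the median GC content was 66.5% (quartiles 62.4 and 70.6%), against 65.6% in all called promoter regions and 61.4% at the canonical TSSs of all 19625 protein-coding genes. The ratio of observed to expected CpG was 0.831, 0.795 and 0.727 in the same order. By the limits of 50% GC and a ratio of 0.6, 284 of the members (94.7%) were island-like, against 84.1% of all called promoter regions and 65.2% of all TSSs. The step lay at the low end, as regions of 1 ZFP had 75.3%, those of 2 to 4 had 91.4% and those of 5 to 9 had 96.2%. Of the 6 repeat regions 0 covered a TSS, and their summits lay a median of 776 bp from the nearest one. In the window at that TSS their median ratio was 0.411, and 1 of the 6 was island-like. Within the repeat regions themselves the ratio varied. It was 0 for ADAP1, 0.229 for GPR35, 0.537 for PLCXD1, 0.655 for MUC2, 0.823 for TFDP1 and 1.25 for LGR6. The small RNA regions had a lower GC content, 56.8%, with a ratio of 0.799.

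**Figure D4:**
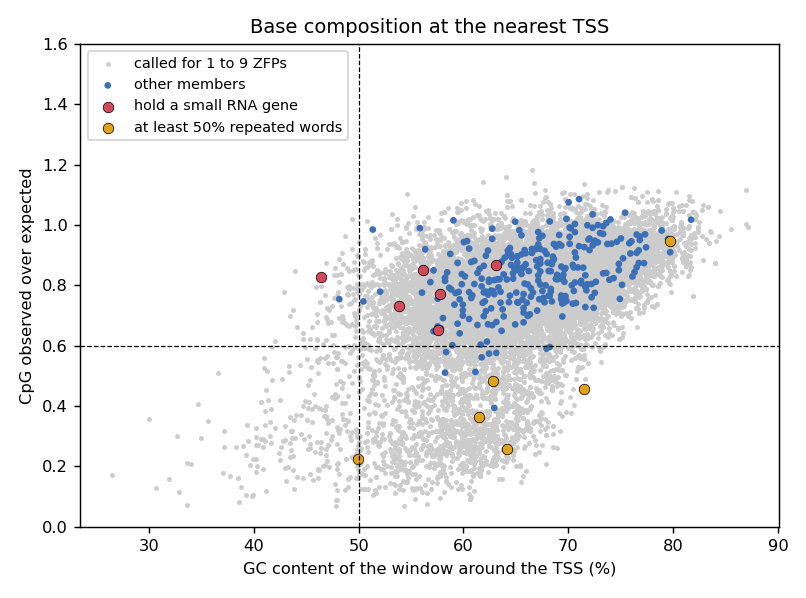
GC content (horizontal axis, percent) and observed over expected CpG (vertical axis) in the window of 1001 bp around the nearest TSS of each promoter region. Grey points were called for 1 to 9 ZFPs, blue points are members, red points members with a small RNA gene and yellow points members with at least 50% repeated words; dashed lines are the limits of 50% and 0.6, and 284 members lie above both.

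Short motifs were searched on both strands from 250 bases before to 50 after the nearest TSS, and no motif lies within another. CCAAT, the box of NF-Y, was in 43.0% of the members and 36% of all promoters, with 29.4%, 34% and 38.1% in regions of 1, 2 to 4 and 5 to 9 ZFPs. GGGCGG, the GC box, was in 79.7% of the members and 61.6% of all promoters. In regions of 1, 2 to 4 and 5 to 9 ZFPs it was in 70.1%, 78.8% and 83.8%. TATAAA, the TATA box, was in 3.33% against 9.67%, with 4.39%, 3.89% and 3.40% in these classes in order. TGANTCA, the AP-1 site, was in 1.67% against 5.45%, with 4.11%, 3.03% and 2.49%. CCGGAAG of ETS factors (15% against 14%), CACGTG, the E-box (8.33% against 8.74%), TGACGTCA, the CRE (9 members, 3.0%, against 2.73%), and GCCATNTT of YY1 (9.67% against 8.13%) differed by under 2 percentage points. These shares describe letters in the reference and were not adjusted for base composition. All promoters were read at the canonical TSS of each gene, and called regions at the transcript start nearest the summit.

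Most members lay on the TSS, as did most regions of 5 to 9 ZFPs. The merged region covered a protein-coding TSS in 280 members (93.3%) and in 90.8% of regions of 5 to 9 ZFPs. The share was 53.6% of all promoter regions and 32.5% of those of 1 ZFP. Members were also wider, with a median of 1086 bp against 354 bp in all promoter regions, which bears on that share. The median distance from the median summit to the nearest TSS was 119 bp, against 165.5 bp in all promoter regions. It was 114 bp in regions of 5 to 9 ZFPs and 369 bp in members of 16 or more. Of the latter, 61.5% covered a TSS. The summit was upstream in 56.0% of the members, 46.9% of regions of 5 to 9 ZFPs and 42.4% of all promoter regions. A single list's summit lay a median of 85 bp from the region's median summit, and 68.6% lay within 150 bp. Coding TSSs on both strands were within 1 kb in 55 members (18.3%), in 16.7% of regions of 5 to 9 ZFPs and in 11.4% of all promoter regions. That search ran 1 kb beyond each region's edges, so its span was longer for wider regions, which bears on these shares too. HSPD1 and HSPE1, SARS2 and MRPS12, and SRSF2 and MFSD11 are gene pairs that shared a member.

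**Figure D5:**
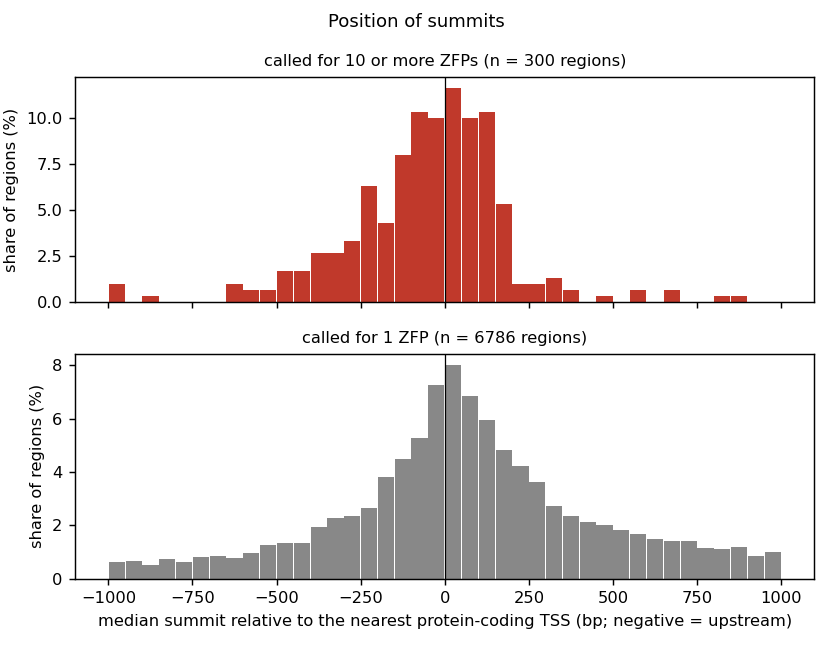
Position of the median summit relative to the nearest protein-coding TSS (horizontal axis, bp, negative is upstream) as a share of regions (vertical axis, percent) in bins of 50 bp, for the 300 members (top) and the 6786 regions of 1 ZFP (bottom); summits beyond 1 kb are not drawn. The median distance was 119 bp in the members, and 70.0% of them lay within 200 bp against 46.6% of regions of 1 ZFP. In regions of 5 to 9 ZFPs, which are not drawn, 72.9% did.

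The genes at the members were spread over many functions. Of 19617 protein-coding genes, 1.88% had a member within 1 kb, and list shares are read beside that. The lists also differed in how many genes had a region called for any ZFP, 53.97% for all genes. It was 85.3% for tRNA synthetases, 75% for splicing factors and hnRNPs and 66.1% for the respiratory chain and ATP synthase. Only zinc finger genes (51.5%) and the interferon response (7 of 25) were below all genes. The shares with a member were not adjusted for this. Splicing factors and hnRNPs, which process and package pre-mRNA, had 7 of 88 genes (7.95%). The 3 called for the most ZFPs were SRSF2 (16 ZFPs), HNRNPU (13 ZFPs, median fold 5.42) and SRSF4 (13 ZFPs, 6.47). tRNA synthetases, which charge tRNAs, had 3 of 34 (8.82%), FARS2, SARS2 and YARS1, with 10 ZFPs each. Genes of DNA replication and the cell cycle had 6 of 105 (5.71%), led by CDC42EP4 (15 ZFPs), a Cdc42 effector that the name pattern of the list took in, ORC6 (12), a subunit of the origin recognition complex, and CDC34 (11), a ubiquitin-conjugating enzyme. Tubulins and actins had 2 of 32 (6.25%), TUBA1B and TUBG1, with 10 ZFPs each.

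Among genes of the mitochondria, mitochondrial ribosomal proteins had 4 of 78 (5.13%), led by MRPL55 and MRPS18B (11 ZFPs each) and MRPL54 (10). The respiratory chain and ATP synthase had 4 of 109 (3.67%), led by CYCS (11 ZFPs), the electron carrier cytochrome c, NDUFAF3 (11), an assembly factor of complex I, and ATP5MC1 (10), a subunit of ATP synthase. Heat shock proteins and chaperones had 4 of 87 (4.6%), at 2 regions. HSPD1 and HSPE1, the mitochondrial chaperonins, share a promoter that was called for 12 ZFPs with a median fold of 5.77, and the region of DNAJC25 and its readthrough gene DNAJC25-GNG10 was called for 10. Of chromatin modifiers 4 of 79 were members (5.06%), led by KDM8 (14 ZFPs), CHD1 (13), a remodeller, and HDAC4 (11), a histone deacetylase.

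Translation factors had 3 of 71 (4.23%), EIF1 with 12 ZFPs, EIF3A with 10, and EEF2KMT with 10, a methyltransferase of the elongation factor eEF2 that the name pattern took in. Cytosolic ribosomal proteins had 2 of 86 (2.33%), RPS29, whose region holds RN7SL1, and RPL5 with 11 ZFPs. Proteasome subunits had 1 of 50, PSMA5 with 11 ZFPs, and immediate early genes 1 of 37, EGR1 with 10. Zinc finger genes had 12 of 604 (1.99%), close to the share of all genes, led by ZNF48 and ZNF706 (15 ZFPs each) and ZNF428 (12). The lists of histones (93 genes), the integrated stress response (20), interferon response (25), RNA polymerase II, mediator and TFIID (87), ubiquitin and conjugating enzymes (49) and developmental transcription factors (160) had 0, with at most 9 ZFPs at any listed gene. A 0 holds for the genes listed and not for the whole function. CDC34, the ubiquitin-conjugating enzyme named above, and the homeodomain factor PBX3 have members and are in none of these lists. With lists this short, 1 or 2 genes move a share by several percentage points. By chromosome, the share of promoter regions that were members was 3.77% on chromosome 21 and 3.63% on chromosome 19, with 38 members, and 0.896% on chromosome 7.

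At 5 members the gene encodes a tagged ZFP, and reads of that ZFP's plasmid are not balanced by un-transfected cells. The promoter of MAZ was called for 14 ZFPs (chr16:29805201-29806121), without MAZ, at a median fold of 7.78 in 20 lists. A second region in MAZ (chr16:29807159-29808992) had folds of 129 and 178 in the MAZ lists, at summits in a coding exon, against 4.23 to 7.85 in the 17 other lists. The region shared by CISD1 and IPMK had a fold of 21.4 in the CISD1 replicate 1 list, in a coding exon, against 4.34 to 9.64 in the 18 others. CTCF had 12.4 and 5.88 in its own lists, outside coding exons, against 2.00 to 8.44 in the 17 others. ZNF706 was called for 15 ZFPs without its own. All 5 remained without the ZFP's own lists at 10 or more ZFPs, as each was called for 11 or more.

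Some members have near copies elsewhere, where short reads may not be placed with certainty. In 20 members (6.67%) at least 50% of the 32-base words within 50 bp of the median summit occurred again in the genome, against 3.18% of all promoter regions. They include RN7SL1, RN7SK, RNU2-2, ADAP1, LGR6, MUC2, TMEM87B, FAM72C, FAM86B1, FAM86B2, NOMO3, TMEM191B, TMEM191C and GAGE2E. How reads divided among the copies was not measured. POLR1B, NFE2L2, C14orf93, PBX3, RPPH1 and RMRP were not among them.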

How the data were processed

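HEK293T cells expressing V5-tagged ZFPs and un-transfected mock IP cells were profiled by Cut&Run. Per the labels and the study's methods, read trimming used Trimmomatic 0.36, alignment to hg38 used Bowtie2 2.3.5.1 (fragments from 10 to 700 bp), Picard took out duplicates, and MACS2 2.2.7.1 made a narrow peak list per library relative to mock IP at an FDR of 0.05. The deposited fold is a ratio of library over control at the summit. The deposited −log10 p and −log10 q values and the score derived from −log10 q come from the same step. Each list is 1 library, with replicates not pooled. No mock IP list was used.

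Peaks sharing at least 1 bp were merged, a ZFP was counted once per region, and a region was kept within 1 kb of any protein-coding transcript start of GENCODE 44. Where a list had several peaks in a region, the highest fold was taken. Small RNA genes came from RefSeq (GRCh38.p14, the same primary sequence as hg38). Python 3.11.15, pandas 2.3.3, numpy 2.4.6, scipy 1.17.1, pysam and bedtools were used. Merging gave the same regions as bedtools in 50 of 50 simulated sets, and the nearest TSS was right in 500 of 500. The sequence and values of 1 member are not reported here. No differential test was run, since members were selected on the calls themselves and regions are not replicates. Intervals cover counting error only.

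The members and gene lists were chosen with earlier results of these data known. Regions named are the 12 called for the most ZFPs, the 5 of highest median fold, 3 at exactly 10 and 3 at exactly 9 ZFPs with the most lists, those at genes of tagged ZFPs and, from each gene list, the 3 genes called for the most ZFPs. ZFPs named are the 5 with the most and the 5 with the fewest members, and others where a value calls for it. The alternatives were q thresholds, distances, ways of joining peaks, TSS sets, replicates, ZFP numbers and ZFP sets.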

Additional observations from a re-analysis of the deposited data

How the results depend on the processing

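Of 133 values under alternatives, 93 moved by less than a set limit and 40 by more. The limit was the SD between the replicate lists for medians, 1.5 times for counts, and the exact 95% interval (34.7 to 37.9%) for the share of pairs called in both replicates. The number of members and of genes was 748 and 904 with 8 or more ZFPs, 109 and 129 with 12 or more, 90 and 105 at −log10 q of at least 3, 25 and 26 at 5 or more, and 7 and 7 where both replicates were needed. It was 136 and 162 without CPSF4, MBNL1, SNRPC, TRIM55, ZC3H3 and ZMAT5, which have no Cut&Run entry in the study's summary, and 59 and 66 without the 3 ZFPs with the most peaks. Leaving out a replicate of all ZFPs gave 20 to 149 members and 22 to 178 genes. The median fold was 5.60 with 8 or more ZFPs, 6.09 with 12 or more, 6.73 and 8.60 at the q limits of 3 and 5, 8.48 with both replicates, 5.97 without the 6 ZFPs, 6.17 without the 3, and 6.09 to 6.21 with a replicate left out. The share of pairs called in both replicates was 30.3% at 8 or more ZFPs, 42.5% at 12 or more, 43.8% without the 6 ZFPs and 38.2% without the 3. It has no value where both replicates are needed or 1 is left out.

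The CpG ratio was 0.819 and 0.812 at the q limits of 3 and 5, 0.747 with both replicates, and 0.808 to 0.824 with a replicate left out. GC content was 62.4% at the q limit of 5, 58.7% with both replicates, and 62.2 to 66.1% with a replicate left out. The distance from summit to TSS was 278 bp at the q limit of 5, and 129 to 316.5 bp with a replicate left out. The cause of these shifts was not tested, and each of these alternatives also counts fewer lists or peaks. The number of ZFPs with a peak in at least 50% of the members was 8 to 13 under all alternatives. Distances of 500 bp and 2 kb, joining windows around summits, gene 5′ ends, leaving out the libraries labelled U2AF1 or the regions at genes of tagged ZFPs, and, added after the data were seen, leaving out small RNA and repeat regions or the 6 lists with no peak on their own gene moved none of the 8 values past these limits. The limit for the distance was wide (SD 133 bp), and with gene 5′ ends the distance was 182.5 bp against 119 bp. No paired analysis was possible because the values come from no test. How far short lists lack members for want of reads was not tested.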
